A study of Capra hircus with 9 samples.

Results

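Genes of antigen presentation were followed in goat mammary gland, namely CD74, CIITA, B2M, TAP1, TAP2, TAPBP, PSMB8, PSMB9, NLRC5 and CD86. They were taken by symbol from a table of 23499 genes, and all 10 were found and passed the filter on low values. The 9 libraries came from 9 healthy goats of the Laoshan dairy breed, which averaged 4 years of age, were in the third parity and were kept on a single farm. Mammary tissue was collected from 3 goats in late lactation (LL, 240 days postpartum), 3 in the dry period (DP, 300 days postpartum) and 3 in late gestation (LG, 140 days after mating). Each library is whole tissue of a different goat, with no treatment and no sorting of cells, so the stages differ in animal as well as in time.

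Cells show fragments of their own proteins on MHC class I. Proteins are cut by the proteasome, in which interferon-induced immunosubunits can take the place of constitutive subunits, and the peptides are pumped into the endoplasmic reticulum by the TAP transporter and loaded with the help of tapasin onto a heavy chain held by beta-2-microglobulin. Class II molecules instead show material taken up from outside, mainly on macrophages, dendritic cells and B cells, and depend on the invariant chain and on the transactivator CIITA. In the mammary gland both leukocytes and epithelium can contribute such transcripts, and milk itself carries beta-2-microglobulin.

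By mean scaled value, the class II genes CD74 and CIITA and the class I regulator NLRC5 stood highest in the dry period. PSMB8, PSMB9, TAP1, TAP2, TAPBP and the costimulatory gene CD86 had their highest means in late gestation, and B2M in late lactation. Between DP and LG only CD74 differed at the thresholds given below, and the ranges of NLRC5, PSMB9, TAP1 and B2M overlapped. Relative to late lactation, 4 of the 10 genes rose in DP (CD74, CIITA, NLRC5 and PSMB9) and 1 fell (B2M), whereas 13.8% of all genes tested rose and 8.79% fell. CIITA and NLRC5 reached the filter of 0.5 FPKM in 3 libraries through their DP and LG values alone, so a rise from LL was a condition of their being tested, and among the other 8 genes 2 rose in DP and 5 in LG. In LG against LL, 7 genes rose (CD86, CIITA, NLRC5, PSMB8, PSMB9, TAP1 and TAP2) and 0 fell, against 10.7% and 6.61% of all genes (17.3% in either direction). In LG against DP, 0 genes rose and 1 fell (CD74), against 6.37% and 6.88% of all genes, and 5 of the 10 had an adjusted p under 0.05 in limma without regard to fold, against 34.8% of all genes. At an adjusted p alone, 9 genes differed between DP and LL and 9 between LG and LL, where 56.9% and 50.2% of all genes did. The median log2 fold change of the 10 genes was 0.96 for DP against LL, 1.28 for LG against LL and 0.44 for LG against DP, and that of all genes was 0.00, 0.02 and 0.01. At an unadjusted limma p under 0.05 and without regard to fold, 8 genes were higher and 1 (B2M) lower for LG against LL, where 28.7% and 28% of all genes were. At the same p, 4 genes (TAP2, TAPBP, PSMB8 and CD86) were higher and 2 (CD74 and CIITA) lower in LG than in DP, against 23.6% and 21.8% of all genes. By range alone, the scaled values of 8 genes in DP lay above LL without overlap, where 32.5% of all genes did, and those of B2M lay below, where 33.4% did. In LG against LL 8 genes lay above (31% of all genes) and B2M below (30.2%), and for LG against DP 4 lay above (25.1%) and 2 below (22.8%). As deposited, 9 genes lay above LL in DP and 10 in LG, where 84% and 76.1% of all genes did. Both comparisons with LL share the LL libraries, and both with DP share the DP libraries.

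Values were read as FPKM, fragments per kilobase of transcript scaled to the mapped reads, which the table does not name as its unit. Depth is not recoverable from them, so no counting error is attached to a value. A few very abundant transcripts filled the LL libraries, where the top 10 genes took up 80.6% to 86% of the summed FPKM, against 53.6% to 58.5% in DP and LG. Each library was therefore divided by a median-ratio scaling factor (0.498 to 0.605 for LL, 1.44 to 1.53 for DP and 1.2 to 1.31 for LG), and these values are called scaled FPKM. A gene was said to rise or fall at an adjusted p under 0.05 in limma over the 14701 genes tested together with a log2 fold change reaching 1 in size, taken on the log2(scaled FPKM + 1) scale, which understates the change of weakly expressed genes. Without scaling the median gene moved by 1.09 for DP against LL, 0.93 for LG against LL and -0.18 for LG against DP. Limma p-values set a difference between stages against the spread between goats within stages, shared over all stages and moderated over all genes. Exact permutation p-values set it against all reassignments of the libraries compared.

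Leukocyte genes differed between the stages. The summed scaled FPKM of 6 pan-leukocyte genes was 58.4 to 79.9 for LL, 114 to 236 for DP and 56.3 to 81.8 for LG. For 9 macrophage genes the sum was 87.2 to 121 for LL, 219 to 283 for DP and 96.9 to 110 for LG, and for 7 T cell genes it was 6.99 to 7.17 for LL, 19.5 to 61.1 for DP and 14.3 to 22.3 for LG. Of the pan-leukocyte genes tested, 5 of 6 rose from LL to DP, against 13.8% of all genes. From LL to LG 0 of 6 rose, against 10.7% of all genes, and 0 differed at an adjusted p alone, against 50.2%. The values of CD48, counted among the 5, follow those of a neighbour. From LL to LG 3 of 7 T cell genes rose (CD3D, CD3G and CD8A), against 10.7% of all genes. The 7 T cell genes together summed to 3.57 to 4.23 FPKM as deposited in LL, and how many passed the filter through DP and LG alone is not given here. Of 8 macrophage genes tested, 2 fell from LL to LG (CD14 and CD68), against 6.61% of all genes. From DP to LG 8 of 8 fell, against 6.88% of all genes. The sum of 7 dendritic cell genes was 11.8 to 14.5 for LL, 14.6 to 15 for DP and 7.85 to 7.96 for LG. B cell genes summed to 18 in DP replicate 1 and to 0.449 to 2.67 in the other 8 libraries, and adipocyte genes to 20.4 there and to 1.14 to 3.72 elsewhere, so this library stood apart, and results that turn on it are given without it. The macrophage gene MARCO stayed under 0.5 FPKM in every library, and none of the leukocyte markers in the table was at 0 throughout. The 7 luminal epithelial genes summed to 865 to 1140 for LL, 297 to 553 for DP and 782 to 927 for LG. Fibroblast genes summed to 151 to 235, 359 to 1593 and 253 to 484 in the same order, and the milk protein genes CSN2 and LALBA to 163617 to 264229, 14.8 to 35.8 and 3843 to 5297. In whole tissue, fewer cells of a type and less RNA per cell cannot be told apart, and the part that cell composition has in the values below was not tested.

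**Figure D1:**
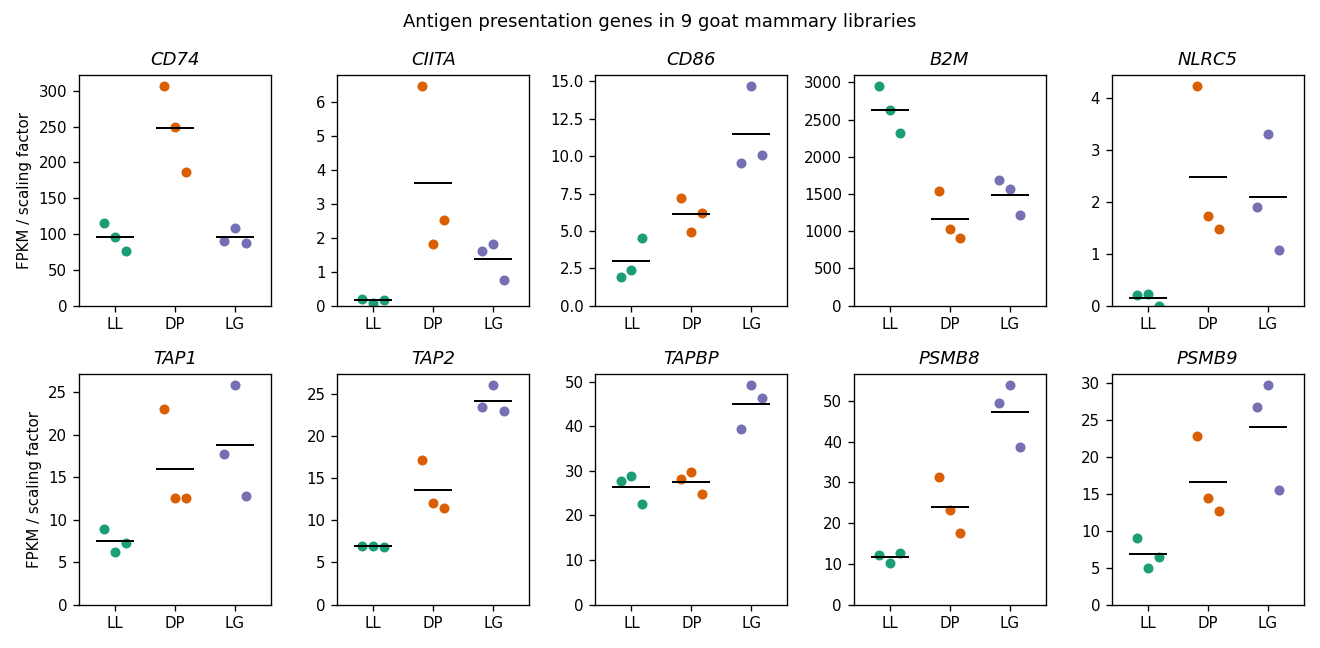
Scaled FPKM (FPKM divided by the scaling factor of the library, linear axis from 0) of the 10 antigen presentation genes in late lactation (LL), the dry period (DP) and late gestation (LG). Points are libraries, 3 a stage, and bars are means. CD74 and CIITA stood highest in DP, CD86, TAP2 and PSMB8 in LG, and B2M in LL.

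By FPKM as deposited, which is a value per length, B2M led in every stage, at 1442 ± 35.7 for LL, 1713 ± 553 for DP and 1850 ± 226 for LG (SD, n = 3 each). CD74 came next, at 52.3 ± 5.65, 366 ± 99.6 and 119 ± 13.8 FPKM in LL, DP and LG (SD, n = 3 each), and its range overlapped with that of no neighbour in the order of levels. TAPBP and PSMB8 followed, and their ranges overlapped in DP and LG but not in LL. TAP1, TAP2 and PSMB9 had overlapping ranges with their neighbours among these genes in every stage, at means of 3.72 to 4.08 FPKM for LL, 20 to 24.7 for DP and 23.3 to 30.2 for LG. CD86 came next, overlapping its neighbour above in LL and LG, at 1.68, 9.03 and 14.3 FPKM in the same order. The master regulators CIITA and NLRC5 had the lowest levels in all 3 stages, and their ranges overlapped each other throughout.

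CD74 (gene ID 102185560, chromosome 7, 48668848 to 48676702) encodes the invariant chain, which escorts class II molecules to the compartment where they are loaded. Its scaled FPKM was 115, 96.5 and 76.4 in the 3 LL libraries, 307, 250 and 187 in DP, and 90.7, 109 and 87.3 in LG. All DP libraries lay above all others, and the LL and LG ranges overlapped. CD74 rose 2.55-fold in DP against LL (log2 fold change 1.35, standard error 0.22, limma adjusted p = 8.66e-04) and fell 2.53-fold in LG against DP (log2 fold change -1.34, standard error 0.22, limma adjusted p = 0.00178). Between LG and LL the difference was 0.01 on the log2 scale, with a 95% interval of -0.49 to 0.51. Before scaling, CD74 was higher in every LG library than in any LL library, and the unscaled log2 fold change of 1.17 stood beside a shift of the median gene of 0.93. The added 1 makes that shift smaller for weakly expressed genes, so the gap between 1.17 and 0.93 is not a rise of CD74. Both DP differences stayed past the threshold without DP replicate 1, at 1.18 against LL and -1.17 for LG against DP.

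CIITA (gene ID 102172509, chromosome 25, 9432056 to 9487197) encodes the transactivator on which class II transcription depends. It was at 0.10, 0.05 and 0.11 FPKM as deposited for LL, near the lower end of the scale, at 9.90, 2.64 and 3.64 for DP and at 1.92, 2.24 and 0.99 for LG. The 3 stages did not overlap in these values. On the scaled scale DP ran from 1.83 to 6.48 and LG from 0.753 to 1.82, so the lowest DP library was just above the highest LG library. The log2 fold change was 1.86 for DP against LL (standard error 0.32, limma adjusted p = 0.0011) and 1.02 for LG against LL (standard error 0.32, limma adjusted p = 0.025). As no LL library reached 0.5 FPKM, both are descriptions of a gene that passed the filter where it was high. The latter sat at the threshold. It was not called with quantile normalization (0.95), with only the LL and LG libraries in the fit (0.91), or without any of 7 of the 9 libraries in turn, among them LG replicate 2 (0.87). In LG against DP the value was -0.85 (95% interval -1.57 to -0.12, limma adjusted p = 0.0682). It was -1.10 and called without scaling, -1.11 and called without DP replicate 2, and -0.42 and not called without DP replicate 1.

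CD86 (gene ID 102184760, chromosome 1, 66200368 to 66264053) encodes a ligand through which antigen presenting cells costimulate T cells by CD28. Its scaled FPKM was 1.93, 2.40 and 4.56 for LL, 7.21, 4.94 and 6.23 for DP, and 9.54, 14.7 and 10.1 for LG. The stages were ordered without overlap from LL through DP to LG. CD86 rose 3.21-fold in LG against LL (log2 fold change 1.68, standard error 0.25, limma adjusted p = 5.86e-04). In DP against LL the log2 fold change was 0.89 (95% interval 0.33 to 1.45), and for LG against DP it was 0.79 (95% interval 0.23 to 1.36), both with a limma adjusted p under 0.05 and under the fold threshold. The former was called at 1.16 without LL replicate 3, the LL library with the highest CD86, at 1.00 without DP replicate 2 and at 1.10 with a pseudocount of 0.1. Within a library, CD86 was 0.0167 to 0.0597 of the CD74 level for LL, 0.0198 to 0.0333 for DP and 0.105 to 0.135 for LG, so this ratio was highest in LG in all 3 libraries, a comparison chosen after the values were seen.

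PSMB9, TAP1, PSMB8 and TAP2 lie close together on chromosome 23, within 32815 bases. PSMB9 (gene ID 102181449, 41490123 to 41496734, minus strand) and TAP1 (gene ID 102181173, 41496924 to 41505887, plus strand) start head to head with 189 bases between them. PSMB8 (gene ID 102180902, 41506453 to 41510451) begins 565 bases after TAP1, and TAP2 (gene ID 102180638, 41514225 to 41522937) follows 3773 bases further on, both on the plus strand. None of the 4 overlaps another, and none holds values that follow those of a neighbour. The coordinates are those of the deposited table, which names no genome build, and all 10 genes have the same start and end in the RefSeq gene table of ARS1.2.

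PSMB8 and PSMB9 encode immunosubunits of the proteasome, which favour cleavage after residues suited to class I binding. The scaled FPKM of PSMB8 was 12.2, 10.1 and 12.7 for LL, 31.2, 23.1 and 17.6 for DP, and 49.5, 54 and 38.6 for LG. The stages did not overlap, with LG highest. PSMB8 rose 3.81-fold in LG against LL (log2 fold change 1.93, standard error 0.22, limma adjusted p = 1.12e-04), the largest log2 fold change among the 10 genes in that comparison. In DP against LL it was 0.95 (limma adjusted p = 0.0048) and for LG against DP 0.98 (limma adjusted p = 0.00735), both just under the fold threshold. Small changes carried either over it, among them a pseudocount of 0.1, which gave 1.00 in both, leaving out DP replicate 3 (1.15 in the former) and leaving out LG replicate 3 (1.11 in the latter). Without DP replicate 1, LG against DP gave 1.18 and was called.

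PSMB9 had scaled FPKM of 8.98, 4.99 and 6.47 for LL, 22.8, 14.5 and 12.7 for DP, and 26.7, 29.8 and 15.5 for LG. LL lay below all other libraries, and DP and LG overlapped. PSMB9 rose 2.24-fold in DP against LL (log2 fold change 1.17, standard error 0.29, limma adjusted p = 0.00805) and 3.16-fold for LG against LL (log2 fold change 1.66, standard error 0.29, limma adjusted p = 0.00154). The former was not called without DP replicate 1 (0.93) or LL replicate 2 (0.98). LG against DP gave 0.49, with a 95% interval of -0.17 to 1.15.

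Each immunosubunit replaces a constitutive counterpart, PSMB8 for PSMB5, PSMB9 for PSMB6 and PSMB10 for PSMB7, and the ratio within a library does not depend on scaling. PSMB8 was 0.391, 0.319 and 0.488 times PSMB5 for LL, 2.18, 1.3 and 0.77 times for DP, and 1.58, 1.96 and 1.17 times for LG. The PSMB9 to PSMB6 ratio was 0.191, 0.107 and 0.164 for LL, 1.02, 0.596 and 0.468 for DP, and 0.78, 0.844 and 0.483 for LG. PSMB10 stood at 0.357, 0.245 and 0.399 times PSMB7 for LL, 1.52, 1.28 and 1.19 times for DP, and 2.08, 1.81 and 1.55 times for LG. All 3 ratios were higher in every DP and LG library than in any LL library, by 3.3-fold, 4.4-fold and 4.04-fold in DP and by 3.9-fold, 4.56-fold and 5.52-fold in LG. Each of these 6 differences gave p = 0.1 in a two-sided exact permutation test (adjusted p = 0.129 over 9 tests), the smallest p that 3 against 3 libraries allow. The share of all genes without overlap on such ratios was not computed. The ratios also move with PSMB5, PSMB6 and PSMB7, at -0.68, -0.83 and -0.60 on the scaled log2 scale for DP against LL. The folds in DP are therefore not a rise of the immunosubunits alone. Between LG and DP the PSMB8 and PSMB9 ratios overlapped (exact permutation p = 0.7 and p = 0.9), while that of PSMB10 was 1.36-fold higher in LG without overlap (exact permutation p = 0.1).

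**Figure D2:**
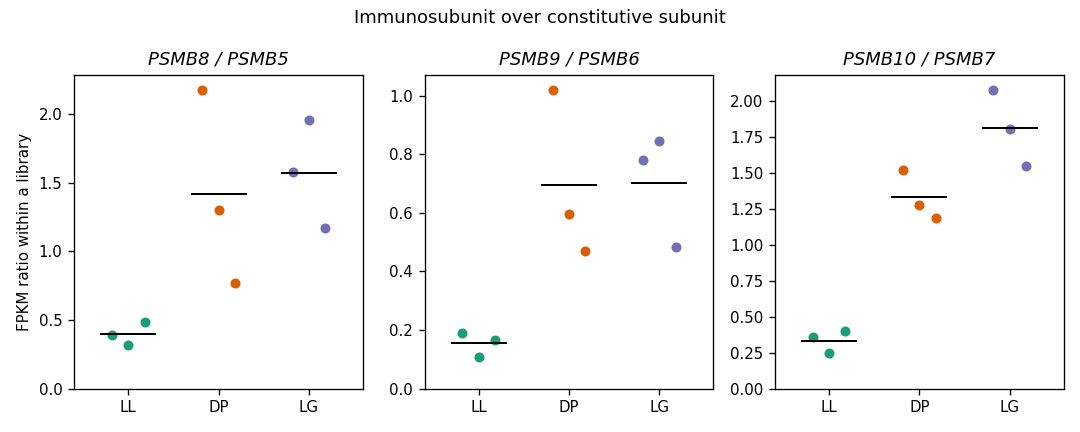
Ratio of FPKM of each proteasome immunosubunit to its constitutive counterpart within a library (linear axis from 0). Points are libraries, 3 a stage, and bars are means of the ratios. Every LL library lay below every DP and LG library in all 3 panels, with LL at 0.107 to 0.488.

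The constitutive subunits passed the threshold in no comparison of scaled values. After scaling, PSMB5, PSMB6 and PSMB7 had log2 fold changes of -0.68, -0.83 and -0.60 in DP against LL, each with a limma adjusted p under 0.05 and under the fold threshold. The same genes were at 0.05, -0.38 and 0.09 between LG and LL, where PSMB5 and PSMB7 were called only without scaling (1.18 and 1.23). The third immunosubunit, PSMB10 (gene ID 102189234, chromosome 18, 36682569 to 36685151), had 6.71 ± 0.80 FPKM for LL, 47.1 ± 2.36 for DP and 89.8 ± 15.5 for LG (SD, n = 3 each). It rose in all 3 comparisons, by 1.33, 2.46 and 1.13 on the log2 scale for DP against LL, LG against LL and LG against DP. The last of these was not called without scaling (0.91), with quantile normalization (0.84) or without LG replicate 1 (0.97).

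TAP1 and TAP2 encode the subunits of the transporter that carries peptides into the endoplasmic reticulum. TAP1 had scaled FPKM of 8.86, 6.24 and 7.25 for LL, 23, 12.5 and 12.5 for DP, and 17.7, 25.9 and 12.8 for LG. LL lay below the other stages, which overlapped. TAP1 rose 2.28-fold in LG against LL (log2 fold change 1.19, standard error 0.29, limma adjusted p = 0.00743), a call lost without LG replicate 2 (0.94). In DP against LL it was at 0.96 (95% interval 0.32 to 1.61, limma adjusted p = 0.0175), called without DP replicate 2, DP replicate 3 (1.10 each) or LL replicate 1 (1.08), with quantile normalization (1.12) and with a pseudocount of 0.1 (1.04), and at 0.69 with a limma adjusted p of 0.056 without DP replicate 1.

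TAP2 varied least within LL, with scaled FPKM of 6.97, 6.94 and 6.79, and had 17.2, 12.1 and 11.4 in DP and 23.5, 26.1 and 23 in LG. The stages did not overlap, with LG highest. It rose 3.19-fold in LG against LL (log2 fold change 1.67, standard error 0.16, limma adjusted p = 4.31e-05). DP against LL gave 0.86 (limma adjusted p = 0.00157) and LG against DP 0.81 (limma adjusted p = 0.00385), both under the fold threshold. Without scaling, DP against LL was called at 2.10. As a description chosen after the values were seen, the TAP1 to TAP2 ratio was 0.898 to 1.27 for LL, 1.03 to 1.34 for DP and 0.554 to 0.995 for LG, where LG and LL overlapped. The head-to-head pair PSMB9 and TAP1 had ratios of 0.8 to 1.01 for LL, 0.992 to 1.16 for DP and 1.15 to 1.51 for LG.

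TAPBP (gene ID 102191658, chromosome 23, 41199211 to 41208978) encodes tapasin, which holds the class I molecule at the transporter during loading. It lies 281144 bases before PSMB9, and its first 63 bases overlap the annotated end of ZBTB22. Its values are not a separate measurement. Those of ZBTB22 exceeded TAPBP by 2.58 to 3.08 FPKM and those of the next gene, RGL2, by 2.56 to 3.06 FPKM in every library, and once amounts fixed for each library were taken off, the remaining differences came to 0.0% of the range. TAPBP was at 27.7, 28.8 and 22.5 scaled FPKM for LL, 28.1, 29.8 and 24.8 for DP, and 39.4, 49.4 and 46.3 for LG. LG lay above the other stages, which overlapped. The log2 fold change was 0.07 for DP against LL (95% interval -0.28 to 0.42), 0.75 for LG against LL (limma adjusted p = 0.00346) and 0.69 for LG against DP (limma adjusted p = 0.00825), none of them past the fold threshold. Which of the 3 genes these values belong to is not given by the table.

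B2M (gene ID 102168267, chromosome 10, 143203 to 148886, minus strand) encodes beta-2-microglobulin, the light chain of every class I molecule and also a part of the neonatal Fc receptor. Its FPKM as deposited was 1470, 1453 and 1401 for LL, 2345, 1481 and 1314 for DP, and 2029, 1926 and 1595 for LG. As deposited, LL and DP overlapped and LG lay above LL. After scaling the order turned, to 2953, 2627 and 2314 for LL, 1534, 1028 and 913 for DP, and 1694, 1561 and 1214 for LG, with LL above all others. B2M thus fell 2.32-fold in DP against LL relative to the median gene (log2 fold change -1.21, standard error 0.23, limma adjusted p = 0.00166). The direction depends on the scaling, since without scaling the value was 0.20 and with quantile normalization 2.39, which was called higher. In LG against LL it was at -0.83 (limma adjusted p = 0.0129), under the fold threshold. Within a library, B2M stood at 25.6 to 30.3 times CD74 for LL, 4.11 to 5.01 times for DP and 13.9 to 18.7 times for LG, a ratio that no scaling alters and that was chosen after the values were seen.

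NLRC5 (gene ID 102189149, chromosome 18, 26375696 to 26467171) encodes the counterpart of CIITA for class I genes. It was listed at 0.10, 0.13 and 0 FPKM for LL, at 6.47, 2.49 and 2.12 for DP and at 2.27, 4.07 and 1.41 for LG. LL lay below all other libraries, and DP and LG overlapped. Its LL values are all under the filter, which it passed through DP and LG, so the rises that follow are a description. NLRC5 rose in DP against LL (log2 fold change 1.52, standard error 0.32, limma adjusted p = 0.00298) and for LG against LL (log2 fold change 1.37, standard error 0.32, limma adjusted p = 0.00579). In LG against DP it was at -0.15, with a 95% interval of -0.86 to 0.56. Without DP replicate 1 the rise in DP was 1.15 and was still called.

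**Figure D3:**
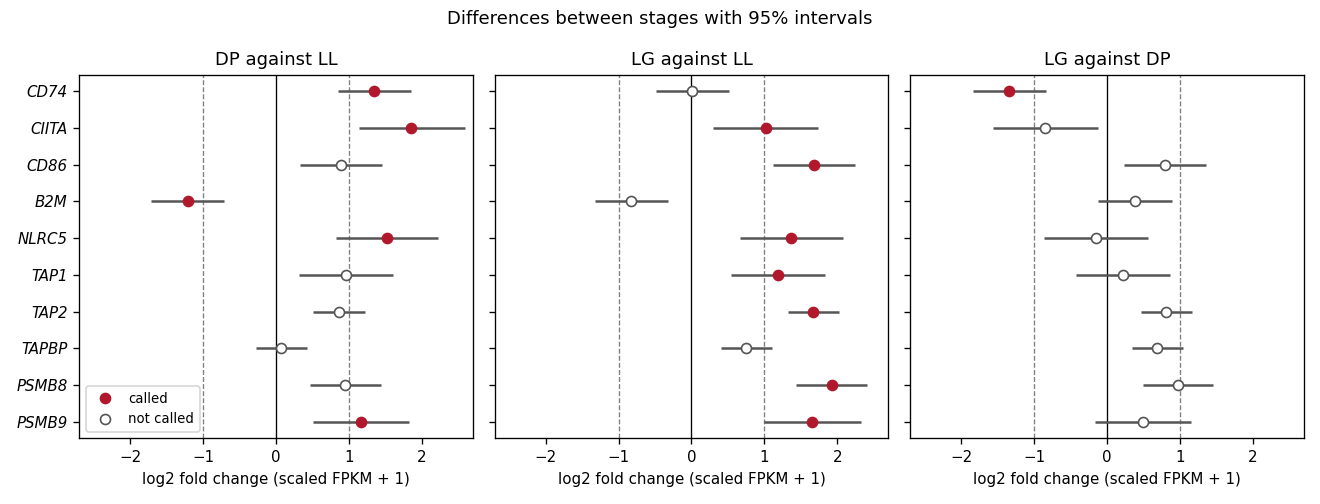
Log2 fold changes of the 10 genes on the log2(scaled FPKM + 1) scale in the 3 comparisons. Points are limma estimates, horizontal lines are 95% intervals, dashed lines mark a log2 fold change of 1 in size, and filled points passed the adjusted p and the fold threshold. CD74 was called for DP against LL (1.35) and LG against DP (-1.34) and lay at 0.01 for LG against LL, where PSMB8 was at 1.93.

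Goats of a stage differed together in these genes. In DP, replicate 1 had the highest scaled value for 9 of the 10 genes (all but TAPBP), while it was highest for 35.4% of all genes tested. In LG, replicate 2 was highest for 9 genes (all but B2M) and replicate 3 lowest for 8, against 30.9% and 41.3% of all genes. In LL, replicate 1 was highest for 6 genes, against 28.8% of all genes. DP replicate 1 also held the highest pan-leukocyte, T cell and B cell sums (236, 61.1 and 18) and LG replicate 2 the highest sums of its stage for the same lists (81.8, 22.3 and 0.908). The macrophage sum was instead highest in DP replicate 3 (283, against 233 in replicate 1), the library lowest for 7 of the 10 genes, and in LG replicate 1 (110, against 102 in replicate 2). The fold between the highest and lowest goat of a stage was greatest for CIITA in DP (3.54) and smallest for TAP2 in LL (1.03), among the genes with no value at 0.

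Without DP replicate 1, 3 genes rose in DP against LL (CD74, CIITA and NLRC5), B2M still fell, and LG against DP gave 1 gene higher (PSMB8) and 1 lower (CD74). LG against LL then gave 6 genes higher, with CIITA at 0.99.

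PTPRC encodes CD45, which leukocytes carry on their surface, and it served as a reference within each library. It had 3.56 ± 0.585 FPKM for LL, 34.2 ± 19.4 for DP and 10.6 ± 2.26 for LG (SD, n = 3 each). PTPRC itself rose by 1.58 from LL to DP and was at -1.24 for LG against DP, a call lost when DP replicate 1 (-0.84) or LG replicate 3 (-1.07) was left out. The CD74 to PTPRC ratio was 16, 18 and 11.2 for LL, 8.36, 13 and 14.2 for DP, and 10.4, 10.4 and 13.6 for LG, with all 3 stages overlapping. Its differences in log2 were -0.36 for DP against LL, -0.38 for LG against LL and -0.02 for LG against DP (exact permutation p = 0.4, 0.2 and 0.9).

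Ratios to PTPRC move with PTPRC itself, so each count is set beside the share of all genes tested. PSMB8 was 1.69, 1.89 and 1.85 times PTPRC for LL, 0.853, 1.21 and 1.33 times for DP, and 5.7, 5.15 and 6.02 times for LG. The TAP2 to PTPRC ratio was 0.969 to 1.3 for LL, 0.47 to 0.861 for DP and 2.49 to 3.59 for LG. Relative to PTPRC, LG lay above DP without overlap for 8 of the 10 genes, which were B2M, TAP1, TAP2, TAPBP, PSMB8, PSMB9, NLRC5 and CD86, by 2.15-fold (NLRC5) to 5.05-fold (PSMB8). On this ratio 64.2% of all genes lay above without overlap, and 1.78% lay below, where 0 of the 10 did. NLRC5 was at -0.15 in the fold change of its own values. Each gave the smallest exact permutation p of 0.1 (adjusted p = 0.133 over 28 tests). Against LL, LG was higher without overlap for TAP1 (1.87-fold), TAP2 (2.68-fold), PSMB8 (3.1-fold), PSMB9 (2.67-fold), CD86 (3.11-fold) and CIITA (6.69-fold), where 16.3% of all genes were. B2M was 2.32-fold lower than in LL on this ratio, where 34.1% of all genes were lower. In DP against LL the ratio was lower without overlap for TAP1 (1.58-fold), TAP2 (1.7-fold), PSMB8 (1.63-fold), TAPBP (3.13-fold) and B2M (7.61-fold), where 72.5% of all genes were, and higher for CIITA (6.36-fold), where 6.38% were. NLRC5 was not tested against LL on this ratio because of its value at 0, though its DP and LG ratios lay above those of LL. The CIITA ratio rests on values of 0.05 to 0.11 FPKM in LL, and with a pseudocount of 1 on both genes its log2 difference of 2.74 for LG against LL became -0.04 and that of 2.67 for DP against LL became -0.43. CD86 to PTPRC was 0.268, 0.449 and 0.668 for LL, 0.197, 0.258 and 0.472 for DP, and 1.1, 1.41 and 1.57 for LG.

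**Figure D4:**
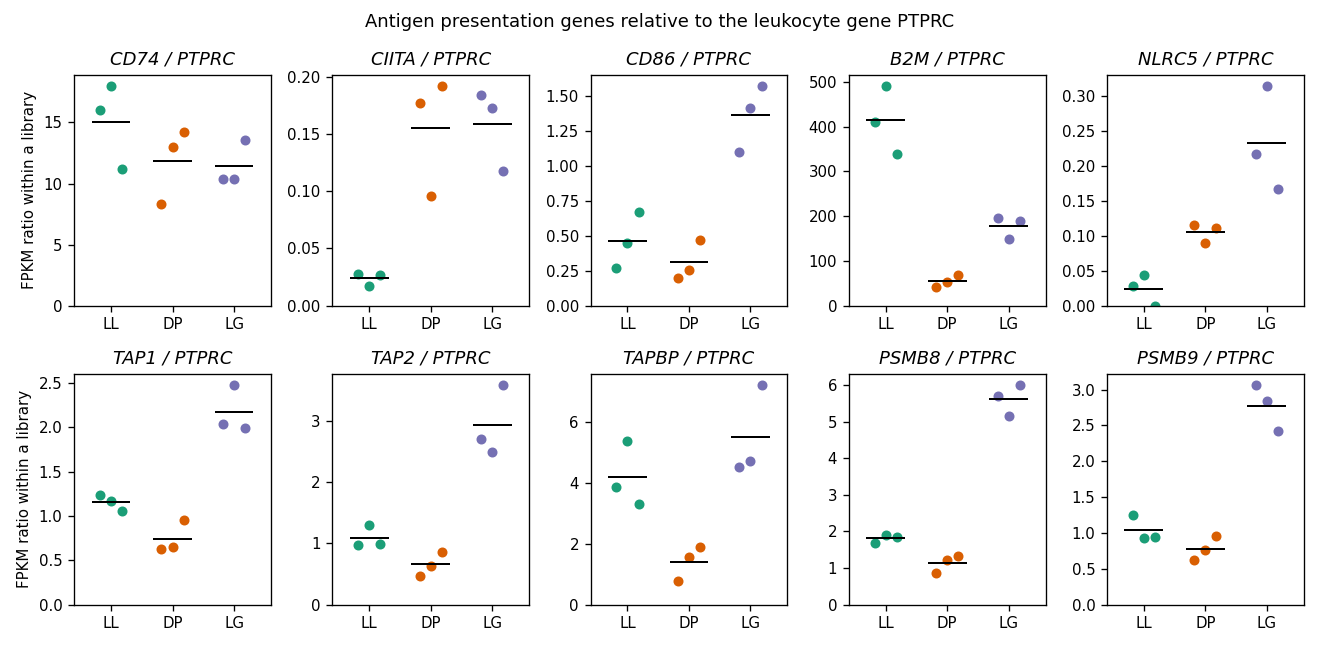
Ratio of FPKM of each gene to FPKM of PTPRC, the leukocyte gene for CD45, within a library (linear axis from 0). Points are libraries, 3 a stage, and bars are means of the ratios. The CD74 ratio overlapped between all stages at 8.36 to 18, whereas the PSMB8 ratio was 5.15 to 6.02 in LG and at most 1.89 elsewhere.

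Other genes of the pathway were followed as a list of 59 names, of which 48 were in the table and 47 were tested. Names were matched by plain symbol only. The 11 names that were not matched include the class II chains, which were not sought under other names. Any class II chain held under a LOC name was therefore not recognised as such and is not in the counts of this list. They also include MARCHF1, a second name of MARCH1, which was tested. In DP against LL 8 of the 47 rose and 2 fell (HSPA5 and LNPEP), with a median log2 fold change of 0.42, against 13.8% and 8.79% of all genes. LAMP3, MARCH1 and SPI1, counted among the 8, were under 0.5 FPKM in every LL library and passed the filter through the other stages. LG against LL gave 8 higher and 2 lower, with a median of 0.18, against 10.7% and 6.61% of all genes. LG against DP gave 3 higher and 7 lower, with a median of 0.02, against 6.37% and 6.88% of all genes.

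Of 15 genes of class I assembly, all 15 had log2 fold changes above 0 in LG against DP, where 50.8% of all genes did, with a median of 0.57. Of them 3 rose (PSMB10 and the peptide-trimming aminopeptidases ERAP1 and ERAP2), against 6.37% of all genes. The same 15 were divided in DP against LL, with 7 above 0, 8 below and a median of -0.01. Of 9 genes of class II loading, 8 were below 0 in LG against DP, where 50.8% of all genes were above 0. Their median was -0.86, and 4 fell (AP1S2, CTSL, LAMP3 and LGMN), against 6.88% of all genes. The values of TAPBPL and PSME3 in the class I list follow those of a neighbour, CD27 and AOC2. The difference between the 2 lists was not tested. In LG against LL 10 of the 15 class I genes were above 0, where 51.1% of all genes were. In that comparison 5 of the 15 rose, against 10.7% of all genes, namely PSMB10, ERAP1, ERAP2 and the proteasome activator genes PSME1 and PSME2. The 3 higher calls of LG against DP in the whole list fell to 0 without LG replicate 1.

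CTSL, a lysosomal cysteine protease gene, showed the largest fall of the 47 genes in LG against DP. It had 0.95, 1.19 and 1.57 FPKM for LL, 8.32, 13.52 and 2.79 for DP, and 0.39, 0.34 and 0.30 for LG, and LG lay below all others. The log2 fold change was -2.19 for LG against DP (limma adjusted p = 0.00166) and -1.33 for LG against LL (limma adjusted p = 0.0125), the latter not called without scaling (-0.73). As no LG library reached 0.5 FPKM, CTSL passed the filter through LL and DP, and both falls, also in the counts above, are a description. MARCH1, whose product removes class II and CD86 from the surface, was listed at 0, 0.11 and 0.37 FPKM for LL, 6.74, 3.41 and 4.18 for DP and 1.79, 1.36 and 1.65 for LG. It rose by 1.73 in DP against LL (limma adjusted p = 1.38e-04). As no LL library of MARCH1 reached 0.5 FPKM, it passed the filter through DP and LG, and this rise is a description. ICAM1, an adhesion ligand for T cells, had 2.21 ± 0.349, 18.7 ± 2.12 and 4.38 ± 0.88 FPKM (SD, n = 3 each) and was lower in LG than in DP, at -1.62 (limma adjusted p = 8.90e-05).

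Among the regulators, RFX5, a subunit of the factor that binds class I and class II promoters, had 0.13, 0.11 and 0.53 FPKM for LL, 6.57, 4.47 and 4.26 for DP, and 6.89, 5.54 and 6.04 for LG. It rose by 1.64 for DP against LL (limma adjusted p = 1.00e-04) and by 2.06 for LG against LL (limma adjusted p = 3.80e-05). Only 1 LL library of RFX5 reached 0.5 FPKM, so it passed the filter through DP and LG. IRF1, an interferon-induced activator of class I genes, had 3.42 ± 0.19, 18.8 ± 6.3 and 29.8 ± 9.15 FPKM in LL, DP and LG (SD, n = 3 each) and rose by 1.75 in LG against LL (limma adjusted p = 8.79e-04). SPI1, which encodes a transcription factor of myeloid and B cells, had 0.13, 0.23 and 0.14 FPKM for LL, 5.45, 3.89 and 3.04 for DP, and 1.46, 1.55 and 1.45 for LG. It rose by 1.53 in DP against LL (limma adjusted p = 3.70e-05). SPI1 too was under 0.5 FPKM in every LL library and passed the filter through DP and LG, so its rise is a description. IFNGR1, a chain of the interferon gamma receptor, had 26.7 ± 7.04, 73.2 ± 1.58 and 21.2 ± 4.02 FPKM (SD, n = 3 each), and fell in LG against both DP (log2 fold change -1.51) and LL (log2 fold change -1.44). Without scaling, IFNGR1 was at -0.30 in LG against LL and was not called.

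The genes with the profiles most like CD74, TAP1 and CD86 were sought among all genes tested, by the root mean square difference of centred log2 scaled values over the 9 libraries. These are descriptions, and the libraries are shared by every gene. Among the genes near TAP1 were LOC102184403 and LOC106503901 (0.17 and 0.18), which the table does not name. LOC102184403 had 1.32 ± 0.356 FPKM for LL, 7.57 ± 1.68 for DP and 8.03 ± 3.06 for LG (SD, n = 3 each).

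Nearest to CD74 were LOC102181962 (0.15), the prostaglandin receptor gene PTGER4 (0.15) and the interferon-induced exonuclease gene ISG20 (0.17). LOC102181962 and ISG20 had means of only 0.107 and 0.13 FPKM for LL and 0.44 and 0.327 for LG. The log2(scaled FPKM + 1) scale flattens differences at such levels, so their likeness to CD74 between LL and LG rests partly on it. PTGER4 had 2.07 ± 0.174 FPKM for LL, 15.6 ± 5.25 for DP and 4.54 ± 0.67 for LG (SD, n = 3 each). For CD86 the nearest were CRYAB, which encodes a small heat shock protein, ZNF512B and XYLB (0.20, 0.22 and 0.24), and CRYAB had 5.23 ± 2.18, 24.5 ± 3.63 and 44.4 ± 5.5 FPKM (SD, n = 3 each). XYLB was at a mean of 0.117 FPKM for LL, where the same limit holds.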

How the data were processed

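The 9 libraries were made from total RNA of mammary tissue with a TruSeq RNA kit. Per the paper's methods, the authors trimmed reads with Trimmomatic, aligned them to the goat genome with HISAT2 and quantified transcripts as FPKM with StringTie, and the labels also name HTSeq. The deposited FPKM table gives 1 value per gene and library. Its unit, its step from transcripts to genes and its build are not named, and strand-aware counting is not stated. It was read as FPKM because it carries decimals and sums to different totals (601250 to 1157015 per library). Depth is unknown.

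Values were divided by median-ratio factors from 15905 genes, and log2(value + 1) was used. The 14701 genes that reached 0.5 FPKM in 3 or more libraries entered a linear model (limma 3.58.1, R 4.3.3, variances moderated along their trend with the mean) over all 9 libraries, with no covariates and with Benjamini-Hochberg adjustment. Ratios and exact two-sided permutation tests used Python 3.11.15, numpy 2.4.6, pandas 2.3.3 and scipy 1.17.1. Values that follow a neighbour were sought among 15945 genes, each against its 8 next genes of the same strand, and 1459 genes had such a neighbour within 1% of the range. The limma fit and this search were tested on simulated data.

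The 10 genes and all lists were chosen with earlier results of these data known. The other genes named are the constitutive subunits, PSMB10, PTPRC, the 8 listed pathway genes with the largest called change without overlap, neighbours whose values a gene follows and the 3 nearest profiles of CD74, TAP1 and CD86. Any further list gene named beside a count was named after its values were seen. Alternatives covered scaling, pseudocount, filter, libraries in the fit, a replicate block, each library left out, the trend, the fold threshold and linked genes. Sequences were not used here, and 1 gene that the rule names is not reported here.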

Additional observations from a re-analysis of the deposited data

How the results depend on the processing

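The counts of the 10 genes called depend most on the fold threshold and the scaling. Without scaling the median of all genes moved by 1.09 for DP against LL, 0.93 for LG against LL and -0.18 for LG against DP. At the adjusted p alone 56.9%, 50.2% and 34.8% of all genes differed, in either direction. Shares of all genes called at the other settings are not given here, so their counts are no result about these genes. In DP against LL, where 4 rose and 1 fell, no scaling gave 9 and 0, quantile normalization 7 and 0, a pseudocount of 0.1 gave 7 higher, and the adjusted p alone gave 8 higher. In LG against LL, where 7 rose and 0 fell, the adjusted p alone gave 1 lower. In LG against DP, where 0 rose and 1 fell, a pseudocount of 0.1 and the fit of only the DP and LG libraries each gave 1 higher, the adjusted p alone 4 higher, and no scaling and quantile normalization each 2 lower. B2M changed direction in DP against LL without scaling (0.20) and with quantile normalization (2.39), and in LG against DP with quantile normalization (-2.53). The values without scaling differ from the main ones only in that the library factors are left out, and for quantile normalization the cause was not tested. Leaving out each library in turn gave 3 to 6 higher and 1 lower in DP against LL, 5 to 7 higher and 0 lower in LG against LL, and 0 to 1 higher and 1 to 2 lower in LG against DP.

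Of the other pathway genes, 8 rose and 2 fell in DP against LL. No scaling, where the median of all genes moved by 1.09, gave 36 and 0. Quantile normalization gave 0 lower, and the adjusted p alone 23 and 6, where 56.9% of all genes differed in either direction. The limit on such counts given above holds for this list too. In LG against LL, where 8 rose and 2 fell, no scaling gave 24 and 0, a pseudocount of 0.1 gave 14 higher, and the adjusted p alone 15 and 8. In LG against DP, where 3 rose and 7 fell, no scaling gave 1 and 12 and the adjusted p alone 8 and 13. Leaving out each library gave 6 to 11 higher and 2 to 4 lower in DP against LL, 8 to 9 higher and 2 lower in LG against LL, and 0 to 4 higher and 6 to 7 lower in LG against DP. The 4 lower came without LL replicate 3.

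Libraries of the same replicate number come from different goats, and the labels do not say what the number stands for. Same-numbered libraries had correlations of deviations from the stage means of -0.106 to 0.201, with 3 of 9 pairs above 0.1. Different-numbered libraries had -0.223 to 0.072, and 10 of 18 best matches were with the own number. Whether the numbers mark a shared structure was not tested. A replicate block gave the same counts, 4 higher and 1 lower in DP against LL, 7 and 0 in LG against LL and 0 and 1 in LG against DP, and changed 0 of 216 calls over the 72 genes for which they were compared, which leave out the cell type markers other than PTPRC and those in the pathway list. The log2 ratios of subunits and to PTPRC moved beyond the replicate spread under 2 alternatives and stayed within it under 257, the 2 being both for CIITA with a pseudocount of 1 (-0.43 in DP against LL and -0.04 in LG against LL). With FPKM alone, the values of CIITA and NLRC5 in LL cannot be told from the lower limit of detection.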

Other observations

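The interval of chromosome 23 from TAPBP to TAP2 holds 21 genes, of which 5 belong to the antigen presentation genes above. Between BRD2 and PSMB9 lie LOC102188267 and LOC102187998, which the table does not name and which were chosen after their values were seen. LOC102188267 had 6.96, 5.58 and 5.97 FPKM for LL, 50.45, 28.69 and 28.34 for DP, and 16.95, 15.32 and 14.90 for LG. LOC102187998 had 6.80, 5.53 and 7.27 FPKM for LL, 53.52, 33.45 and 31.32 for DP, and 17.65, 17.45 and 13.26 for LG. As deposited, DP lay above LL and LG in all libraries of both. On these values DP lay above LL without overlap for 84% of all genes, and LG below DP for 34.2%. LOC102188986, on the other side of BRD2, rose too (log2 fold change 1.07, limma adjusted p = 0.00461). The former genes both rose for DP against LL in limma, with log2 fold changes of 1.01 (adjusted p = 0.00364) and 1.08 (adjusted p = 0.00241), and stood at 0.16 and 0.11 for LG against LL. These profiles have the order of CD74, whereas PSMB8 and TAP2 on the same chromosome had their highest means in LG. Of the other genes tested in this interval, 3 rose in DP against LL (the LOC genes named here), 1 fell (SLC39A7) and 10 were not called. Of all genes 13.8% rose and 8.79% fell.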
